A study of Mus musculus with 3 samples.

Results

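Of the 22350 protein-coding genes of the mouse annotation, 5 channel genes are described here by the NKX2-5 peaks around them: the pacemaker channel genes Hcn2, Hcn3 and Hcn4 and the sodium channel genes Scn10a and Scn4b. A peak, that is a stretch of genome enriched by chromatin immunoprecipitation and sequencing (ChIP-seq), was assigned to a gene when its midpoint lay within 100 kb of the gene body in the GENCODE M1 annotation of mm9. By this rule 4 of the 4418 peaks of library S1 and 8 of the 5441 peaks of library S4 lay near the 5 genes, a mean of 6 ± 2.83 (SD, n = 2 libraries).

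Both ChIP libraries, S1 and S4, came from hearts of Parkes strain mouse embryos at E11.5, with no treatment or altered allele in the labels. NKX2-5 was precipitated with the NKX-2.5 (N-19) antibody sc-8697, and 1 Input library of genomic DNA was not analysed here. The labels give 1 condition, so no test between groups was possible, and they do not say whether S1 and S4 came from separate hearts. Read numbers are not part of the peak lists and depth is therefore unknown. Since whole hearts were used, fewer bound cells and weaker binding per cell cannot be told apart.

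HCN channels open when the membrane is hyperpolarised and carry the inward funny current that drives the slow depolarisation of pacemaker cells. HCN4 is the main form in the sinoatrial node, and HCN2 and HCN3 are also found in heart and brain. Voltage-gated sodium channels carry the fast upstroke of the action potential: Scn10a encodes the pore-forming subunit Nav1.8, best known from sensory neurons, and Scn4b encodes an auxiliary beta subunit that modifies gating. NKX2-5 is a homeodomain factor of the cardiac lineage that is kept low in the sinoatrial node, and MEIS1 is a further homeodomain factor studied with it.

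The stretches covered by a peak in both libraries numbered 4 near these genes. Those at Hcn4 and Scn10a are given as 200 bases of the plus strand of mm9, 5′ to 3′, around the midpoint of the shared stretch, in lower case. Capitals mark exact matches on either strand to the NKX2-5 core AAGTG, its longer form TNAAGTG, the MEIS core TGACA or the GATA motif AGATAA, where N is any base and a match on the minus strand appears as its reverse complement. The 200 bases at Scn4b, from S4 alone, are added because they hold an overlapping NKX2-5 and MEIS core, and were chosen after their values were seen.
Hcn4 upstream, chr9:58650719-58650918: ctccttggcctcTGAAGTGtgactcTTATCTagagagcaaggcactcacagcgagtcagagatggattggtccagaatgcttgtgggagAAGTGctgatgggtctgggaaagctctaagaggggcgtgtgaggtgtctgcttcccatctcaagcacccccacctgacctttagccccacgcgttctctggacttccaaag
Hcn4 downstream, in Neo1, chr9:58737759-58737958: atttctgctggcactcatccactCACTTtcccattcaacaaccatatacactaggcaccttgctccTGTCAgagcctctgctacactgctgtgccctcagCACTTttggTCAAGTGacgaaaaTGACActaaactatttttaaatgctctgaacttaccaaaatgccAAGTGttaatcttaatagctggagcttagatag
Scn10a intron 17, chr9:119541435-119541634: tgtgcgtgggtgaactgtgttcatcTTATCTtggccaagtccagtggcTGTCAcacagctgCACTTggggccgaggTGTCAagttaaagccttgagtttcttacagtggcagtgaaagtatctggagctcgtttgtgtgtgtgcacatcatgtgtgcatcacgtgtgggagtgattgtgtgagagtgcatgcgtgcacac
Scn4b intron 1, S4 alone, chr9:44954187-44954386: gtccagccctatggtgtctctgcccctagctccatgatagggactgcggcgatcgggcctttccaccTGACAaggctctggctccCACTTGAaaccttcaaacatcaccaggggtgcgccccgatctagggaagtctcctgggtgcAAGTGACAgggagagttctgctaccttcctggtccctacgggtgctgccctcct
The Hcn4 windows carry the NKX2-5 core at several positions, and the Scn10a window carries it at 1 position beside 2 MEIS cores.

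Peaks in S1 lay near 3 of the 5 genes, Hcn3, Hcn4 and Scn10a, whereas 38.4% of all protein-coding genes had an S1 peak within the same distance. In S4 all 5 genes had a peak, beside 44.7% of all protein-coding genes. A region shared by both libraries lay near Hcn3, Hcn4 and Scn10a, 3 of 5 genes, beside 24.3% of all. At least 2 S4 peaks lay near Hcn2, Hcn4 and Scn10a, 3 of 5 genes, beside 20.1% of all. The 5 genes were chosen with peak positions of these data known, so these counts describe them and are no evidence that channel genes differ from other genes. The windows around the genes summed to 1.17 Mb and held 3.41 peaks per Mb in S1, where the chromosomes as a whole held 1.67 per Mb. In S4 the same windows held 6.82 peaks per Mb, and the chromosomes held 2.06 per Mb. The limit set by the choice of genes holds for these densities too.

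No peak lay over the annotated start of any of the 5 genes in either library, 0 of 5, while 2.35% of all protein-coding genes had their start inside an S1 peak and 3.72% inside an S4 peak. The peaks lay 3.15 to 66.63 kb from the start of the gene they were assigned to. Other genes shared the windows: 14 other protein-coding genes around Hcn2, 14 around Hcn3, 8 around Scn4b, and 2 each around Hcn4 and Scn10a. A peak in these windows therefore has several possible neighbours, and proximity does not show which gene it acts on. The plot of peaks along the 5 loci shows the shared pairs beside the S4 peaks that had no partner.

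**Figure D1:**
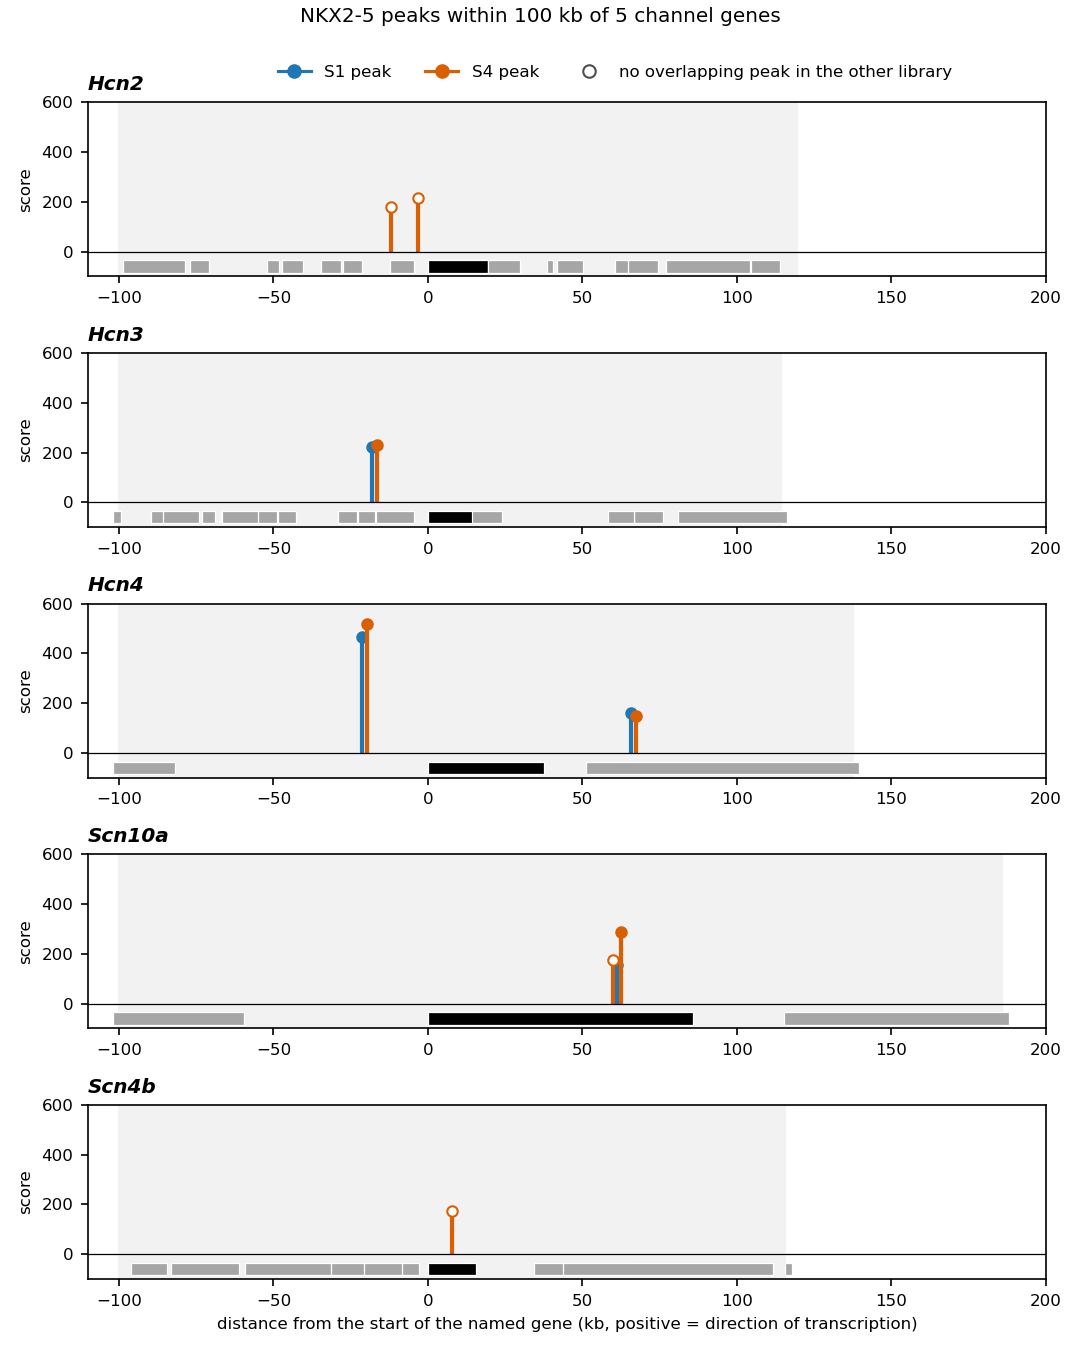
Peaks of S1 (blue) and S4 (orange) by distance from the start of each gene (kb, x axis) and score (y axis), with the named gene in black, other protein-coding genes in grey, cut off just outside the 100 kb window, which is shaded. Filled circles are peaks that overlap a peak of the other library and are drawn slightly apart, and open circles have no partner. The tallest pair stands upstream of Hcn4 (466.65 in S1 and 516.50 in S4), while Hcn2 and Scn4b have open circles alone.

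Hcn4, which encodes the main pacemaker channel of the sinoatrial node, had the only shared regions that lay nearer to its own start than to any other protein-coding start. The gene lies at chr9:58671319-58708762 on the plus strand (ENSMUSG00000032338.8) and spans 37.4 kb. Its upstream peak scored 466.65 in S1 at chr9:58650314-58651324, a width of 1011 bp and rank 603 of 4418. In S4 the peak scored 516.50 at chr9:58650143-58651366, a width of 1224 bp and rank 691 of 5441. The score, which is −log10 of the caller's p-value multiplied by 10, ran from 140 to 3100 in the lists. This pair stood in the upper part of each, since 86.4% of S1 peaks and 87.3% of S4 peaks scored lower.

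The upstream Hcn4 peaks matched closely. The S1 peak lay wholly inside the S4 peak, the 1011 shared bases made up 82.6% of the S4 peak, and the midpoints were 64.5 bp apart. The S4 score was 1.11 times the S1 score, beside a median ratio of 1.12 over all 2546 shared regions. The midpoints lay 20.50 kb (S1) and 20.56 kb (S4) upstream of the Hcn4 start in intergenic sequence, and the next nearest protein-coding start, 2410076I21Rik, was 61.5 kb away. Ranked by the worse of its ranks in the lists, 81.5% of all shared regions stood behind it. It was the only one of the 4 with a score above the median of shared regions in both libraries, 279.4 in S1 and 315.2 in S4.

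The downstream Hcn4 pair was weak in both libraries. It scored 160.63 in S1 at chr9:58737525-58738117 (593 bp) and 147.12 in S4 at chr9:58737602-58738305 (704 bp), where the lowest scores of the lists were 140.01 and 140.02. Only 21.9% of S1 peaks and 7.2% of S4 peaks scored lower. The midpoints lay 29.06 kb (S1) and 29.19 kb (S4) beyond the 3′ end of Hcn4, inside intron 23 of Neo1, which has 29 exons and encodes the receptor neogenin. Hcn4 still had the nearest protein-coding start, at 66.50 kb (S1) and 66.63 kb (S4), since that of Neo1 was 146.4 kb away. The shared stretch was 516 bp, 87.0% of the S1 peak and 73.3% of the S4 peak, with midpoints 132.5 bp apart. The S4 score was 0.92 times the S1 score, and 2.7% of shared regions had a poorer worse rank.

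The Hcn4 regions also differed in motif content. The upstream stretch of 1011 bp held 5 AAGTG matches, 4 of them in the longer form TNAAGTG, and 1 TGACA and 1 AGATAA. Relative to the midpoint, the AGATAA match was centred at -72.5 bp and the AAGTG match nearest to it at -84.0 bp, while a further AAGTG match was centred at -9.0 bp. The downstream stretch of 516 bp held 4 AAGTG matches, centred at -75.5, 1.5, 12.5 and 68.5 bp. The match at 12.5 bp was in the longer form, and the stretch also held 6 TGACA and 1 AGATAA. Per base, the region with the lower scores held more AAGTG matches than the upstream one, but fewer in the longer form.

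Hcn3 (chr3:88949996-88964118, minus strand, ENSMUSG00000028051.4), a further pacemaker channel gene, had 1 shared region in its window. The peak scored 223.27 in S1 at chr3:88981063-88981722 and 231.25 in S4 at chr3:88980916-88981766. These scores stood near the middle of their lists, with 54.1% of S1 peaks and 52.6% of S4 peaks lower. The midpoints were 17.27 kb (S1) and 17.22 kb (S4) upstream of the Hcn3 start but over the promoter of Scamp3, a gene of membrane traffic, and Hcn3 was only the 4th nearest start. The pair matched closely: the S1 peak of 660 bp lay wholly inside the S4 peak of 851 bp, the midpoints were 51.5 bp apart, and the score ratio was 1.04. The stretch had a GC content of 55.3%, the highest of the 4, beside a median of 48.1% over all shared regions. It held 3 AAGTG and 2 TGACA matches, and all of these lay outside the central 200 bases.

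Hcn2 (chr10:79179379-79198853, plus strand, ENSMUSG00000020331.3), a pacemaker channel gene with no S1 peak in its window, had 2 S4 peaks. The nearer one, at chr10:79175854-79176600, scored 217.29 and lay 3.15 kb upstream of the start, in intergenic sequence with Hcn2 as the nearest start. Among the peaks described, this is the shortest distance to the start of the gene the peak was assigned to. It held 4 AAGTG and 3 TGACA matches in 747 bp, and 47.7% of S4 peaks scored lower. The farther one, at chr10:79166865-79167817, scored 180.23 and lay 12.04 kb upstream, over the start of Bsg, which encodes the membrane protein basigin. It was the most GC-rich peak of the set at 62.7% and held 1 AAGTG match. The nearest S1 peak to Hcn2 was 317.6 kb away, so in S1 no peak was called in the whole window.

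Scn10a (chr9:119517584-119603478, minus strand, ENSMUSG00000034533.8), the Nav1.8 gene, spans 85.9 kb and was the only one of the 5 with a shared region inside its own body. The shared peak scored 155.27 in S1 at chr9:119541142-119541830 and 286.63 in S4 at chr9:119541241-119542055. In S1 16.9% of peaks scored lower, and in S4 66.8% did. The S4 score was thus 1.85 times the S1 score, the largest ratio of the 4 regions, and the midpoints were 162.0 bp apart, the largest shift. The 590 shared bases were 85.6% of the S1 peak and 72.4% of the S4 peak.

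The region lies in intron 17 of Scn10a, an intron of 2.16 kb in a transcript of 27 exons. Its distance to the Scn10a start was 61.99 kb (S1) and 61.83 kb (S4). The shared stretch held 1 AAGTG, 4 TGACA and 2 AGATAA matches. A second S4 peak, at chr9:119543134-119543947, scored 176.92 in intron 16 of Scn10a, 59.94 kb from its start, and had no S1 partner. That peak held 1 AAGTG, in the longer form, 5 TGACA and 2 AGATAA matches in 814 bp.

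Scn4b (chr9:44946520-44962235, plus strand, ENSMUSG00000046480.5), the beta subunit gene, had 1 peak, in S4 alone. It scored 173.69 at chr9:44954042-44954532 and was the narrowest peak of the set at 491 bp. It lay in intron 1, which is 7.57 kb long, 7.77 kb downstream of the Scn4b start, and 28.5% of S4 peaks scored lower. It also lay 28.3 kb from the start of Scn2b, a further beta subunit gene. The peak held 2 AAGTG and 2 TGACA matches, and 1 of each overlapped in the 8 bases AAGTGACA, 49.5 bp from the peak midpoint.

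The word AAGTGACA joins the NKX2-5 and MEIS cores and was searched after the values were seen. Over whole peaks, 2 of the 8 S4 peaks held it, the Scn4b peak and the shared Scn10a peak, and of the 4 S1 peaks none did. The share of all peaks that hold the word over their whole length was not counted. The count over whole peaks therefore has no background here and cannot be set against the shares of central windows given below. In the Scn10a peak the word began 198 bp beyond the end of the shared stretch, and 383.5 bp from the S4 midpoint, at chr9:119542028-119542035. It is shown here with its flanks and the match in capitals.
Scn10a, chr9:119542008-119542055, plus strand: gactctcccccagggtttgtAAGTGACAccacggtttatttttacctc
In central windows of 200 bases the word was present in 111 of all 5441 S4 peaks (2.04%, 95% Clopper-Pearson interval 1.68 to 2.45) and in 104 of all 4418 S1 peaks (2.35%, 1.93 to 2.85). By that measure 1 of the 8 S4 peaks near the 5 genes, the one at Scn4b, held it.

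Near these genes S4 gave more peaks than S1, and every S1 peak had a partner. All 4 S1 peaks overlapped an S4 peak (100%, 39.8 to 100), beside 58.9% of all S1 peaks. Of the 8 S4 peaks 4 overlapped an S1 peak (50%, 15.7 to 84.3), beside 47.0% of all S4 peaks. The S4 peaks without a partner, 2 at Hcn2, 1 at Scn10a and 1 at Scn4b, scored from 173.69 to 217.29. Of all 1049 S4 peaks in that range of scores, 294 (28.0%, 25.3 to 30.9) had a partner in S1. These intervals cover counting error only.

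Scores near the 5 genes had a median slightly below that of all peaks in both libraries. They ran from 155.3 to 466.6 with a median of 191.9 in S1, where all peaks had a median of 211.8. In S4 they ran from 147.1 to 516.5 with a median of 198.8, where all peaks had a median of 223.2. A score under 200 was found for 2 of 4 peaks in S1 (Hcn4 downstream and Scn10a), beside 46.2% of all S1 peaks, and for 4 of 8 in S4, beside 41.6% of all S4 peaks. Widths ran from 593 to 1011 bp in S1 (median 674.5 bp, all peaks 625 bp) and from 491 to 1224 bp in S4 (median 814.5 bp, all peaks 783 bp). Scores are relative to the background of their own library, so a ratio between S4 and S1 cannot be told apart from depth. In the plot of S1 against S4 scores the upstream Hcn4 region stands apart from the other 3.

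**Figure D2:**
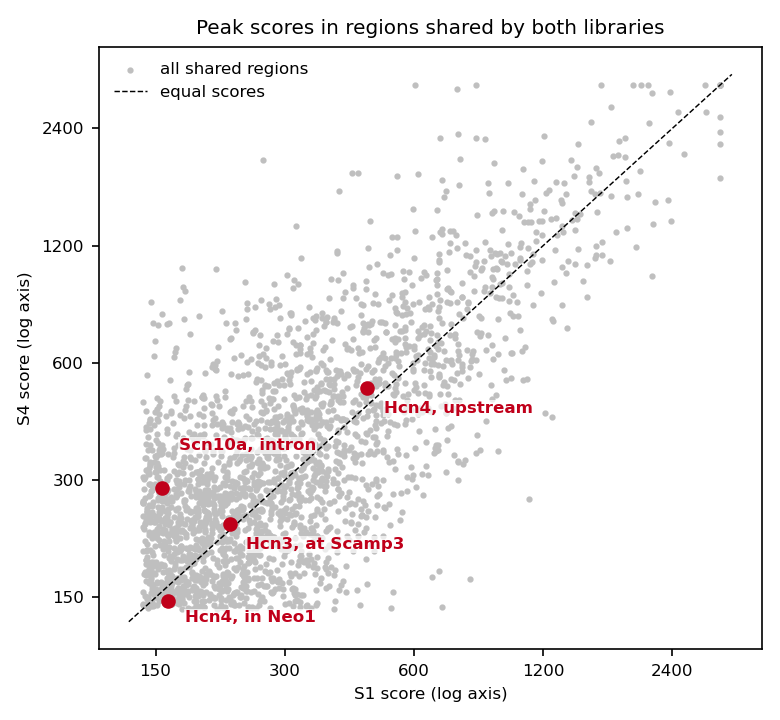
Score in S1 (x axis) against score in S4 (y axis), both on log axes without units, for all 2546 shared regions (grey) and the 4 near the 5 genes (red), with a dashed line at equal scores. Upstream Hcn4, Scn10a and Hcn3 lie above the line with ratios of 1.11, 1.85 and 1.04, the Hcn4 region in Neo1 lies below it at 0.92, and 60.7% of all regions lie above.

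Motif matches in the central 200 bases were counted in the same way in the 4 shared regions and in all 2546. AAGTG was present in 3 of 4, both Hcn4 regions and Scn10a, beside 63.7% of all, and TNAAGTG in 2 of 4, both at Hcn4, beside 32.2%. TGACA was present in 2 of 4, the downstream Hcn4 region and Scn10a, beside 64.3%. AGATAA was present in 2 of 4, upstream Hcn4 and Scn10a, beside 18.9%. Neither the spaced NKX2-5 and MEIS pair GTGNTGACA, found in 9.5% of all, nor the T-box motif AGGTGTGA, found in 1.7%, was in any of the 4 windows. In whole shared stretches AAGTG was in 4 of 4, beside 89.9% of all, and TGACA in 4 of 4, beside 86.8%. There TNAAGTG was in 2 of 4, beside 54.7%, and AGATAA in 3 of 4, beside 39.0%. TNAAGTG contains AAGTG and GTGNTGACA contains TGACA, so these counts overlap. With 4 regions the counts are a description, and a match is not a measured binding site.

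**Figure D3:**
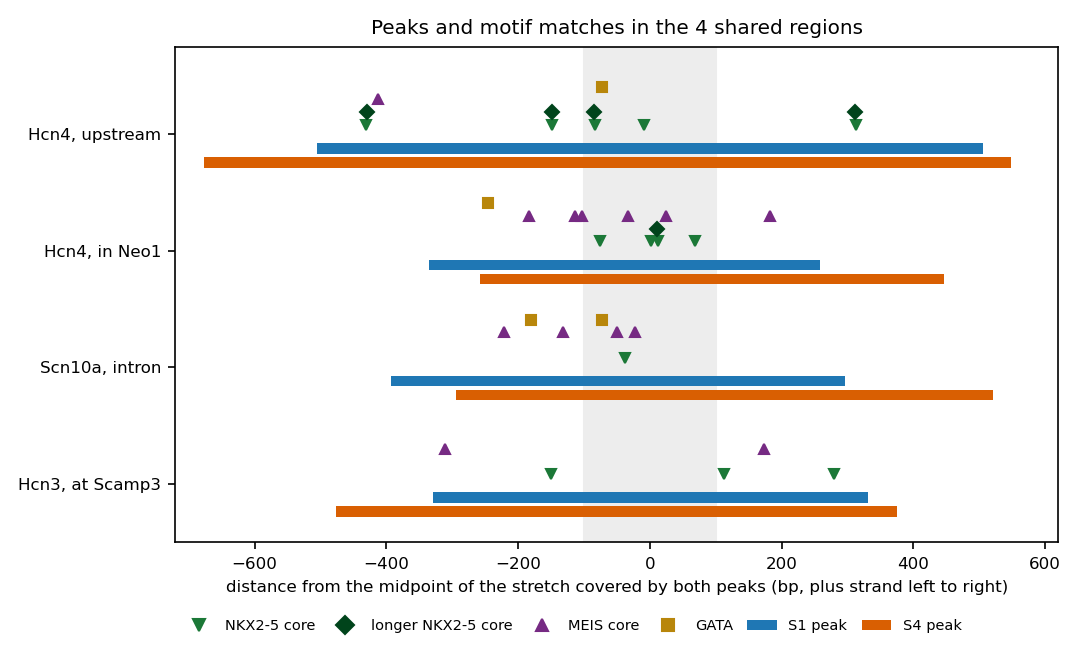
Positions of motif matches (symbols) and extents of the S1 and S4 peaks (bars) in the 4 shared regions, as distance in bp from the midpoint of the shared stretch (x axis) with 1 row per region (y axis) and the central 200 bases shaded. The motifs are the NKX2-5 core, its longer form, the MEIS core and the GATA motif as spelled out above. The Hcn3 row has no symbol inside the shading while the Hcn4 row in Neo1 has 4 NKX2-5 cores there.

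Among the 4 S4 peaks without a partner, AAGTG was in the central 200 bases of 2, the nearer Hcn2 peak and Scn4b, beside 57.7% of all S4 peaks. TNAAGTG was in 1, Scn4b, beside 26.5%, and TGACA in 2, Scn10a and Scn4b, beside 55.9%. None held AGATAA (16.4% of all), GTGNTGACA (6.6%) or AGGTGTGA (1.4%) there. The peak at Bsg, the farther one from Hcn2, held no listed motif in this central stretch.

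The other genes of the same families were counted by the same rule. Of 13, 4 had an S1 peak within 100 kb (30.8%, beside 38.4% of all protein-coding genes). An S4 peak lay near 6 (46.2%, beside 44.7%) and a shared region near 4 (30.8%, beside 24.3%). The median was 0 peaks per gene in each library. Scn2b was counted through the S4 peak at Scn4b, so the 13 genes are not separate from the 5. Scn3a, a sodium channel gene best known from neurons, had a shared region in its intron 1, 3.4 kb from its start, with 214.47 in S1 and 243.35 in S4, and the same region counted for Scn2a1 at 56.6 kb. The median number of peaks per gene was 1 (S1) and 2 (S4) for the 5 genes and 0 for all protein-coding genes in both libraries.

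Further channel gene lists gave a scale for these counts. Of 15 potassium channel genes, 10 had an S1 peak, 13 an S4 peak and 9 a shared region. Of 14 calcium handling genes, 11 had an S1 peak, 11 an S4 peak and 9 a shared region. Of 4 cardiac connexin genes, which encode gap junction proteins, 1, 2 and 1 did so. Over all protein-coding genes the shares were 38.4% for S1 peaks, 44.7% for S4 peaks and 24.3% for shared regions. The plot shows the shares by list. The 5 genes were chosen with peak positions known, so their intervals allow no comparison with those of the other lists.

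**Figure D4:**
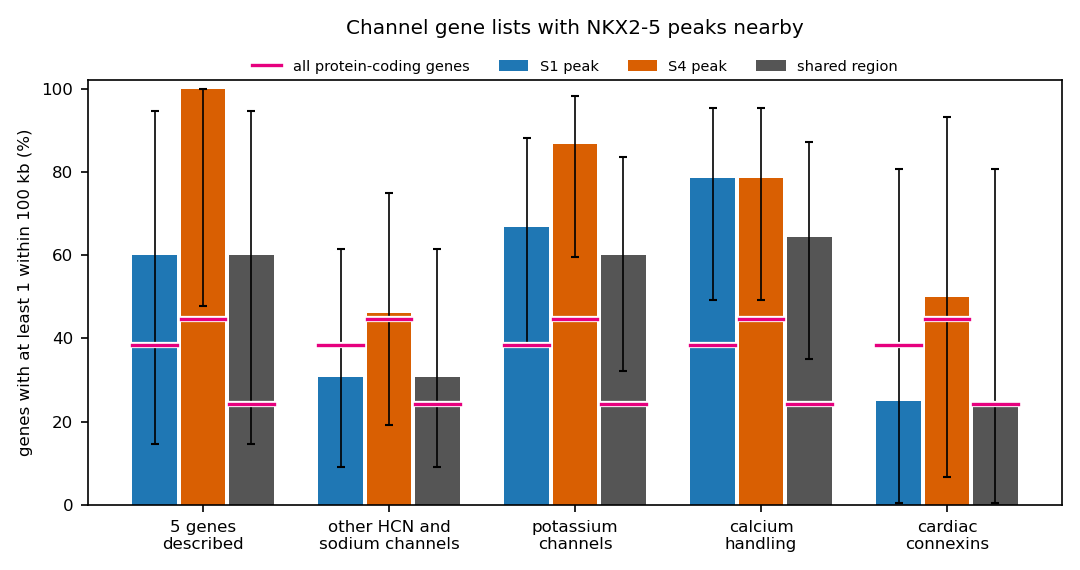
Percent of genes in each list (x axis) with at least 1 S1 peak, S4 peak or shared region within 100 kb of the gene body (y axis, %), with 95% Clopper-Pearson intervals as error bars for counting error only. Magenta lines are the shares over all protein-coding genes, 38.4% for S1, 44.7% for S4 and 24.3% for shared regions, and the lists hold 5, 13, 15, 14 and 4 genes from left to right.

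Beyond the 100 kb limit the next peaks out are given for Hcn2, Hcn3, Hcn4 and Scn4b. The farthest assigned peak lay 12.0 kb (S4) from the Hcn2 body, 17.3 kb (S1) and 17.2 kb (S4) from Hcn3, and 29.1 kb (S1) and 29.2 kb (S4) from Hcn4. The next one out was at 118.2 kb in S4 for Hcn2, with a score of 175.09. For Hcn3 it was a shared pair at 251.6 kb (S1, 155.08) and 251.8 kb (S4, 150.63). For Hcn4 it was a shared pair at 201.6 kb (S1) and 201.5 kb (S4), which scored 159.77 and 406.63. For Scn4b it was at 217.7 kb in S1 and 364.3 kb in S4.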

How the data were processed

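The 2 NKX2-5 ChIP libraries and the Input are grouped by the labels. By the study's methods, a Genome Analyzer IIx gave the reads, BOWTIE placed them on mm9 and MACS 1.4 called the peaks. The BOWTIE version, all settings and the use of the Input as control are not given in the sources used here. For each ChIP library the authors deposited a peak list of its own, not pooled. The deposited score is, from its values, −log10 of the p-value of a peak multiplied by 10. The deposited start and end columns are positions, and starts were raised by 1 to count from 1. Read depth is unknown, so no precision of a score can be given.

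The genes, the gene lists and the motifs were chosen with earlier results of these data known. All 5 genes and every peak within 100 kb of their bodies are named. The rule for sequences took the best-ranked shared region of each gene and further ones with a motif. Of other genes in these families, those with a shared region were to be named, and genes with the nearest start too. Some items that these rules select are not reported here, and the potassium, calcium and connexin lists are given by counts. Peaks counted as shared at an overlap of at least 1 bp, which bedtools 2.31.1 counted alike, and were merged into regions. Positions came from GENCODE M1, with promoters within 1 kb of a transcript start. Sequences were read from the NCBIM37 assembly, which is mm9. The assignment and overlap steps were tested on simulated data. The exact Clopper-Pearson intervals (level 0.95) account for counting error only. No test was made, since the labels give 1 condition. Alternatives were distances of 50 and 250 kb, distance from the start, the 2 nearest starts, a score of at least 200, merging within 1 kb, other overlap rules, other motif windows and leaving out either library. Python 3.11.15, numpy 2.4.6, scipy 1.17.1 and matplotlib 3.10.9 were used.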

Additional observations from a re-analysis of the deposited data

How the results depend on the processing

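The number of peaks near the 5 genes, a mean of 6 per library, rose to 10 with a limit of 250 kb and was 3 after removal of scores under 200. It was 5 with the gene among the 2 nearest starts, and between 4 and 8 when either library was left out. The number of shared regions, 4, fell to 2, upstream Hcn4 and Hcn3, when scores under 200 were removed from each list. Over 24 results there were 88 alternative values, of which 75 stayed within 1.5 times the value given, 4 were higher and 9 were lower. The moved motif counts rest on 4 regions: within 50 bp of the midpoint TNAAGTG was in 1 and AGATAA in 0, around the S4 midpoint TGACA and AGATAA were in 1 each, and in whole stretches TGACA was in 4. AAGTG, in 3 of 4 by the main rule, was in 2 of 4 around the S4 midpoint, both at Hcn4, beside 62.6% of all shared regions. That change stayed within the limit of 1.5 times, but the match at Scn10a was lost. AAGTGACA, added after seeing the data, was in 1 of the central windows of the 8 S4 peaks, beside 2.04% of the central windows of all S4 peaks. Over whole peaks it was in 2 of the 8, a count with no share of all whole peaks to set it against. No paired analysis was possible because the labels give 1 condition and no result comes from a test. Unknown depth limits every statement on a peak called in S4 alone: no S1 peak at Hcn2 and Scn4b says only that none reached a score of 140.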
